A study of Mus musculus with 6 samples.

Results

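The collagen genes are described here by structural class in isolated lung ECs (iLECs) of control and Atp6ap2 iECKO pups. Members were all gene symbols that begin with Col, a type number, the letter a and a chain number, and 44 of the 24972 symbols in the table met this rule. They were sorted by collagen type into 11 fibrillar genes (types 1, 2, 3, 5, 11, 24 and 27), 9 FACIT genes (fibril-associated collagens with interrupted triple helices), 8 basement membrane genes (types 4, 15 and 18), 6 beaded genes (type 6) and 4 transmembrane genes. The remaining 6 genes (types 7, 8, 10, 26 and 28) belong to none of these classes and are given as other collagens. Of the 44 genes, 39 reached a normalized count of 10 in at least 3 libraries and were tested. The 5 that did not were Col6a5, Col6a6, Col9a1, Col10a1 and Col19a1, and Col19a1 was listed at 0 in all 6 libraries.

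Every collagen is a trimer whose chains wind into a triple helix, and the helix needs a glycine at the head of each triplet of residues, the Gly-X-Y repeat. Fibrillar collagens carry 1 long unbroken helix and pack side by side into the fibrils of connective tissue, FACITs sit on fibril surfaces, and type 6 forms beaded microfilaments. Type 4 builds the sheet-like network of the basement membrane on which ECs rest, types 15 and 18 lie at its margins, and transmembrane collagens stay anchored in the cell membrane. In the lung, ECs make basement membrane collagens, whereas fibroblasts and mural cells are the known main producers of fibrillar and type 6 collagen.

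The repeat can be read in the coding sequence. Stretches are printed to illustrate the repeat and its breaks, from 1 fibrillar gene, 1 FACIT gene, 2 basement membrane genes, 1 beaded gene and 1 transmembrane gene. Each was picked at the first short break between runs of triplets, or at the start of the longest run where there was none (Col1a1). The breaks printed are thus a choice and do not measure a class. Unbroken runs reach 113 triplets in Col22a1, 87 in Col6a1, 44 in Col13a1, 40 in Col4a1 and 30 in Col15a1. The sequences run 5′ to 3′ in the sense of the transcript and come from spliced coding exons of the GENCODE M21 annotation of GRCm38, and capitals mark the glycine codons of the triplets.
Col1a1: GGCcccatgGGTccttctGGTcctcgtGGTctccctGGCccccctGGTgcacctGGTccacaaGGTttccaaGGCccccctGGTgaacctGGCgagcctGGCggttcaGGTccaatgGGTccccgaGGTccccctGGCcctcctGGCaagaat
Col22a1: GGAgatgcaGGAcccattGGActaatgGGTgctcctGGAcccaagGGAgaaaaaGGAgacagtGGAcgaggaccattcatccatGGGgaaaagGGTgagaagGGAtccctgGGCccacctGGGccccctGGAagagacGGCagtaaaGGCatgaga
Col4a1: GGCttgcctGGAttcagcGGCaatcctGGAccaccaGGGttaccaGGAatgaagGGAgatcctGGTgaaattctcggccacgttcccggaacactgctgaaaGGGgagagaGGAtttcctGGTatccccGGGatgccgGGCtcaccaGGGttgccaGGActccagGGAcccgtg
Col15a1: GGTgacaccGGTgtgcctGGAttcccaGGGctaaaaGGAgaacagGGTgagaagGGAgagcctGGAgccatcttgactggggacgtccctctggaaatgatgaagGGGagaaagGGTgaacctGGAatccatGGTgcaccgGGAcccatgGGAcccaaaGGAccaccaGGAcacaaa
Col6a1: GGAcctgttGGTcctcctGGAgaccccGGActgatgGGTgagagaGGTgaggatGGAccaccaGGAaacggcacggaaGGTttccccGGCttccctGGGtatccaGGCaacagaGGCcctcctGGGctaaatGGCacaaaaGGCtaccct
Col13a1: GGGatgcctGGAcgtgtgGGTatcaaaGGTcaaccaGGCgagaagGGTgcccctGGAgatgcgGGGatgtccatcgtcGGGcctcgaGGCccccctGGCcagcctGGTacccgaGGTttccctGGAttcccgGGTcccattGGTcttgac
The Col1a1 stretch (residues 168 to 218) shows 17 triplets in a row without a break. The Col22a1 stretch (residues 506 to 557) is broken by 4 residues, the Col4a1 stretch (residues 139 to 196) by 10 and the Col15a1 stretch (residues 829 to 887) by 11. The Col6a1 stretch (residues 493 to 542) and the Col13a1 stretch (residues 138 to 187) each have a break of 2 residues. On GRCm38, Col1a1 lies at chr11:94936224-94953042, Col22a1 at chr15:71795795-72034227, Col4a1 at chr8:11198423-11312826, Col15a1 at chr4:47208161-47313167, Col6a1 at chr10:76708792-76726168 and Col13a1 at chr10:61838236-61979108.

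The iLECs came from P7 pups, and each of 3 control and 3 Atp6ap2 iECKO samples gave 1 RNA-Seq library. By their labels, controls carried a floxed Atp6ap2 allele (PRR (Atp6ap2)fl/Y) and no Cre. Atp6ap2 iECKO samples also carried Cdh5-CreERT2, a tamoxifen-inducible Cre under the promoter of the endothelial gene Cdh5. Pups of both groups received 100 µg tamoxifen on days 1 to 3 after birth, the labels give the strain as C57BL/6, and the study's methods describe a mixed CD1 and C57BL/6 background. iLECs were captured from enzyme-digested lung on beads coated with CD31 antibody, a selection that enriches ECs but can retain attached cells. The study checked purity by immunoblot and reported VE-cadherin in iLECs alone and αSMA and desmin in the non-EC fraction.

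Library totals of normalized counts were between 26243878 and 28725799. Atp6ap2 was 7490, 5815 and 5681 in the control libraries and 4220, 2336 and 1982 in the Atp6ap2 iECKO libraries (log2 difference -1.22, SE 0.26, adjusted P = 0.0306). The highest remaining Atp6ap2 level was in Atp6ap2 iECKO 1. Although all labels give an fl/Y genotype, Xist, the noncoding RNA of the inactive X chromosome, was 37704 and 44402 in control 1 and 2 and 39442 and 47487 in Atp6ap2 iECKO 1 and 3, against 31.7 in control 3 and 19.3 in Atp6ap2 iECKO 2. The 4 Xist-high libraries therefore go against their labels. The study states that pups of both sexes were used, with fl/fl females in the control and the Atp6ap2 iECKO group. The main count is given with and without the split by Xist.

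Of the 39 tested collagen genes, 13 fell and 0 rose in Atp6ap2 iECKO iLECs in limma's test on log2(normalized count + 1) at an adjusted P below 0.05. Over all 14456 genes tested, 4.97% were called lower and 3.28% higher. The 13 were Col1a1, Col1a2, Col3a1, Col5a1 and Col27a1 among the fibrillar genes, Col6a1, Col6a2 and Col6a3 among the beaded genes, Col12a1, Col16a1 and Col22a1 among the FACITs and Col13a1 and Col23a1 among the transmembrane collagens. No basement membrane gene was called. At an unadjusted P below 0.05, 20 collagen genes were lower and 1 was higher, against 12.3% and 11.6% of all genes. Values of the genotypes did not overlap for 21 lower genes and 1 higher gene (Col15a1), against 15.0% and 14.7% of all genes. The median log2 difference was -0.84 over the collagen genes and 0.00 over all genes.

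The 13 falls kept their sign when each library was left out in turn, but the count depended on single libraries. It was 5 without control 3, 6 without Atp6ap2 iECKO 2 and 5 without Atp6ap2 iECKO 3. Col1a1, Col1a2, Col3a1 and Col6a3 were called in all 6 of the fits with 1 library left out. Col6a2 and Col16a1 were called in 5 of them and Col6a1, Col13a1 and Col27a1 in 3. Col12a1 and Col22a1 were called in 2, and Col5a1 and Col23a1 in 1. With Xist as a covariate 12 of the 13 were called. In the 4 Xist-high libraries alone all 13 were lower in sign and 0 were called, and that fit called 0 of 14094 genes. Among the 13 genes, Atp6ap2 iECKO 1 had the highest value of its genotype for 11 and control 1 the lowest of its genotype for 12, so these libraries lay nearest to each other. The plot of values by library shows this order gene by gene.

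**Figure D1:**
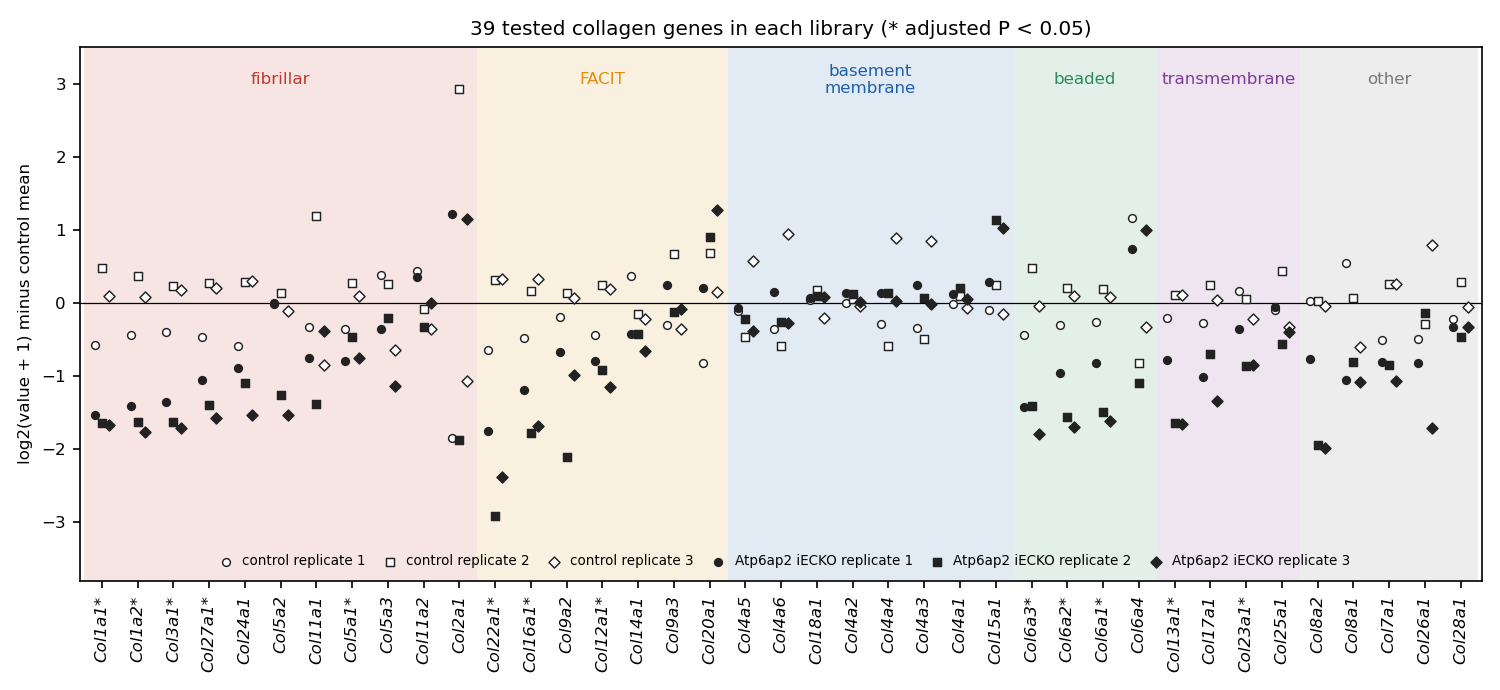
Each of the 39 tested collagen genes by class, with log2(normalized count + 1) minus the control mean on the y axis, open symbols for the 3 control libraries and filled symbols for the 3 Atp6ap2 iECKO libraries. Filled symbols lie below the open ones for the 13 called genes (asterisks), while most basement membrane genes overlap between the genotypes and Col15a1 lies above.

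Of the 11 fibrillar genes, all tested, 5 fell, 0 rose, and the median log2 difference was -0.93. The chains of types 1 and 3, the main fibril collagens of connective tissue, had the highest mean levels per kilobase of the class in control. In Atp6ap2 iECKO the highest means were those of Col5a2 (794 ± 485) and Col3a1 (791 ± 105, SD, n = 3), whose order is not resolved. The Col5a2 mean was raised by Atp6ap2 iECKO 1. Col1a1, the α1 chain of type 1, was 8363, 17353 and 13214 in the control libraries and 4275, 3957 and 3913 in the Atp6ap2 iECKO libraries. Col1a2, its α2 chain, was 13610, 23695 and 19437 against 6938, 5977 and 5397. Col3a1, the single chain of type 3, was 17251, 26691 and 25859 against 8931, 7369 and 6987. For these 3 genes the lowest control library lay above the highest Atp6ap2 iECKO library, and control means were 3.21, 3.10 and 3.00 times those of Atp6ap2 iECKO. Their log2 differences were -1.62 (SE 0.23, adjusted P = 0.0106), -1.60 (SE 0.20, adjusted P = 0.00848) and -1.56 (SE 0.18, adjusted P = 0.00831), in that order.

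Type 5 collagen starts fibrils and sets their width, and of its chains only Col5a1 was called. A difference between the chains was not resolved, as the Col5a1 to Col5a2 ratio overlapped between genotypes (exact permutation P = 0.6). Col5a1 was 4801, 7445 and 6614 in control and 3571, 4491 and 3674 in Atp6ap2 iECKO libraries, with no overlap (log2 difference -0.67, SE 0.17, adjusted P = 0.0485). Col5a2 was 12820, 14178 and 11988 in control, and 12952, 5431 and 4463 in Atp6ap2 iECKO libraries. Atp6ap2 iECKO 1 thus stood at the control level for Col5a2, with log2 ratios to the control mean of 0.00, -1.25 and -1.54 in the 3 libraries, and the difference did not pass (-0.93, SE 0.35, adjusted P = 0.147). Without Atp6ap2 iECKO 1 it was -1.40 (adjusted P = 0.00566). Col5a3 was low, between 9.18 and 28.2 in all libraries, and overlapped.

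Types 24 and 27 are fibrillar collagens with a shorter helix. Col27a1 was 612, 1022 and 979 in control and 410, 323 and 283 in Atp6ap2 iECKO libraries (log2 difference -1.34, SE 0.22, adjusted P = 0.0152). Col24a1 was 69.5, 128 and 129 against 56.0, 48.3 and 35.4, again with no overlap, and missed the threshold (-1.18, SE 0.33, adjusted P = 0.0679). The cartilage-type fibrillar genes gave no call. Col2a1 was 9.51, 287 and 17.2 in control and 87.2, 9.32 and 82.8 in Atp6ap2 iECKO libraries, a spread within each genotype wider than any difference between them (0.16, 95% CI -2.83 to 3.15). The summed level of 12 cartilage markers ran otherwise, at 1399, 987 and 1040 in control and 1027, 1459 and 1145 in Atp6ap2 iECKO libraries, lowest in control 2 where Col2a1 was highest. Within that list the proteoglycan gene Acan was highest in the libraries with high Col2a1, at 2.34, 32.6 and 2.26 in control and 11.1, 1.51 and 20.5 in Atp6ap2 iECKO. Hapln1, the most abundant member, was lowest in control 2, at 849, 301 and 495 against 580, 1055 and 665, and Snorc was listed at 0 in all libraries. Acan and Hapln1 were named after their values were seen. The part of cartilage RNA in the Col2a1 values was not tested. Col11a1, at 10.6 to 67.9, and Col11a2, at 237 to 410, overlapped between genotypes.

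Of the 6 beaded genes, 4 were tested, 3 fell, 0 rose, and the median log2 difference was -1.36. These were the 3 chains of the classic type 6 trimer, which links cells to the surrounding fibrils. Col6a1 was 5694, 7844 and 7214 in control and 3874, 2436 and 2241 in Atp6ap2 iECKO libraries (log2 difference -1.31, SE 0.21, adjusted P = 0.014). Col6a2 was 5462, 7728 and 7165 against 3454, 2274 and 2061 (-1.41, SE 0.21, adjusted P = 0.0113). Col6a3, the longest of the 3 chains, was 6637, 12493 and 8715 against 3327, 3370 and 2587 (-1.55, SE 0.22, adjusted P = 0.0105). No library of one genotype reached into the range of the other for any of them. The later type 6 chains were near the floor of the table: Col6a4 was between 7.55 and 39.7 and overlapped, Col6a5 did not exceed 10.2 and Col6a6 did not exceed 5.05.

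Of the 9 FACIT genes, 7 were tested, 3 fell, 0 rose, and the median log2 difference was -0.96. Col22a1, a collagen of tissue junctions, had the lowest log2 difference of all 39 genes. It was 33.0, 65.2 and 65.7 in control and 14.7, 6.05 and 9.23 in Atp6ap2 iECKO libraries (-2.35, SE 0.46, adjusted P = 0.0247), a 5.46-fold lower mean at low levels. Col16a1 was 920, 1425 and 1597 against 557, 373 and 395 (-1.55, SE 0.23, adjusted P = 0.0117). Col12a1, which binds type 1 fibrils, was 650, 1045 and 999 against 504, 465 and 393 (-0.96, SE 0.19, adjusted P = 0.0271). The 3 genes separated the genotypes in every library.

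Col14a1, another fibril-binding FACIT and the most abundant of the class, was 2807, 1950 and 1869 in control and 1620, 1608 and 1372 in Atp6ap2 iECKO libraries and was not called (-0.51, SE 0.16, adjusted P = 0.0977). Col20a1 was the member that lay against its class, at 25.8, 74.8 and 51.4 in control and 53.3, 87.1 and 113 in Atp6ap2 iECKO libraries, and its ranges overlapped (0.79, SE 0.44, adjusted P = 0.335). The type 9 chains, FACITs of cartilage, were all low. Col9a2 was 26.0, 33.0 and 31.3 against 18.4, 6.16 and 14.6 (-1.26, adjusted P = 0.145), Col9a3 was between 18.0 and 37.6 and overlapped, and Col9a1 reached 37.5 in control 2, the library with the highest Col2a1, and at most 9.29 elsewhere.

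All 4 transmembrane genes were lower in sign, 2 fell, 0 rose, and the median log2 difference was -0.86. Col13a1, a collagen of cell adhesion sites, was 1063, 1315 and 1312 in control and 714, 392 and 388 in Atp6ap2 iECKO libraries (-1.36, SE 0.23, adjusted P = 0.017). Col23a1 was 963, 889 and 737 against 668, 470 and 476 (-0.69, SE 0.17, adjusted P = 0.0454). The genotypes did not overlap for either gene. Col17a1, the hemidesmosome collagen of epithelia, was 28.5, 41.5 and 35.6 against 16.8, 21.0 and 13.1 and missed the threshold (-1.02, adjusted P = 0.128). Col25a1 was between 330 and 656 and overlapped.

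Of the 8 basement membrane genes, all tested, 0 fell and 0 rose in limma's test, and at an unadjusted P below 0.05 there were 0 lower and 1 higher. Shares of all genes at that P were 12.3% lower and 11.6% higher. The median log2 difference was 0.09, and it was -0.02 without control 2, 0.02 without control 1 and 0.21 without control 3. Col4a1 and Col4a2, the chains of the type 4 network found under nearly every vessel, had the highest levels of all collagens. Col4a1 was 157339, 170473 and 151982 in control and 174185, 184529 and 164894 in Atp6ap2 iECKO libraries (0.13, 95% CI -0.22 to 0.48). Col4a2 was 100570, 104942 and 97780 against 111375, 110186 and 101645 (0.09, 95% CI -0.21 to 0.39). Both ranges overlapped, and the lower ends of the intervals lie above the differences of all 13 called genes.

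The other type 4 chains shared a pattern that followed a library and not a genotype. Col4a3 was 1841, 1653 and 4180 in control and 2763, 2451 and 2315 in Atp6ap2 iECKO libraries, and Col4a4 was 1186, 965 and 2694 against 1590, 1599 and 1482. On the X chromosome, Col4a5 was 1282, 1006 and 2072 against 1316, 1192 and 1064, and Col4a6 was 74.2, 63.0 and 184 against 106, 78.9 and 78.6. Control 3 was the highest of the 6 libraries for all 4 genes. The summed level of 18 lung epithelial markers was also highest in control 3, at 86257 against 33951 to 48738 in the other libraries. The part of epithelial RNA in these chains was not tested. Their log2 differences were between -0.23 and 0.10, and their signs changed when control libraries were left out.

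Types 15 and 18 give rise to antiangiogenic fragments, restin and endostatin. Col15a1 was 4505, 5709 and 4321 in control and 5854, 10583 and 9806 in Atp6ap2 iECKO libraries. Every Atp6ap2 iECKO library was above every control library, with Atp6ap2 iECKO 1 closest to control, and the mean was 1.81 times the control mean, but the difference missed the threshold (0.82, 95% CI 0.31 to 1.32, adjusted P = 0.0615). Without Atp6ap2 iECKO 1 it was 1.08 (adjusted P = 0.0105). Col15a1 was the only tested collagen gene whose ranges did not overlap in the higher direction. Col18a1 was 3347, 3675 and 2831 against 3415, 3474 and 3446 and overlapped (0.08, 95% CI -0.16 to 0.31).

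Among the other collagens, 5 of 6 were tested and 0 were called in limma's test, with 2 lower and 0 higher at an unadjusted P below 0.05. Over all genes, 12.3% were lower and 11.6% higher at that P. All 5 were lower in sign, with a median log2 difference of -0.91. Of these, 4 had ranges that did not overlap, against 15.0% of all genes that were lower with no overlap. Col7a1, the anchoring fibril collagen, was 196, 333 and 335 in control and 160, 154 and 132 in Atp6ap2 iECKO libraries (-0.91, SE 0.24, adjusted P = 0.0562). Col8a2, a short-chain collagen of endothelial and corneal membranes, was 32.7, 32.9 and 31.2 against 18.5, 7.67 and 7.37 (-1.57, SE 0.44, adjusted P = 0.0713). Col8a1, Col26a1 and Col28a1 did not exceed 36.5 in any library, and Col10a1 did not exceed 4.63.

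Levels between genes were compared per kilobase of exon. Col4a1 and Col4a2 ranked 1 and 2 in both genotypes, at means of 21427 and 15274 per kilobase in control and 23384 and 16277 in Atp6ap2 iECKO. In control they were followed by Col3a1 (2370), Col1a1 (1977), Col6a1 (1579), Col1a2 (1522), Col5a2 (1355), Col6a2, Col6a3, Col15a1 (763), Col5a1 and Col18a1. In Atp6ap2 iECKO Col15a1 (1378) took rank 3 from rank 10, followed by Col5a2 (794), Col3a1 (791), Col6a1 (651), Col1a1 (617), Col1a2 (491), Col18a1, Col5a1, Col6a2 and Col6a3. Neighbours from rank 3 to 7 and from rank 8 to 11 in control differed by less than the larger of their SDs. The same held from rank 4 to 7, 8 to 10 and 11 to 12 in Atp6ap2 iECKO. The exact order within these groups is not resolved. Rank 10 of Col15a1 in control is therefore a place among Col6a2 (815), Col6a3 (776) and Col5a1 (740).

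**Figure D2:**
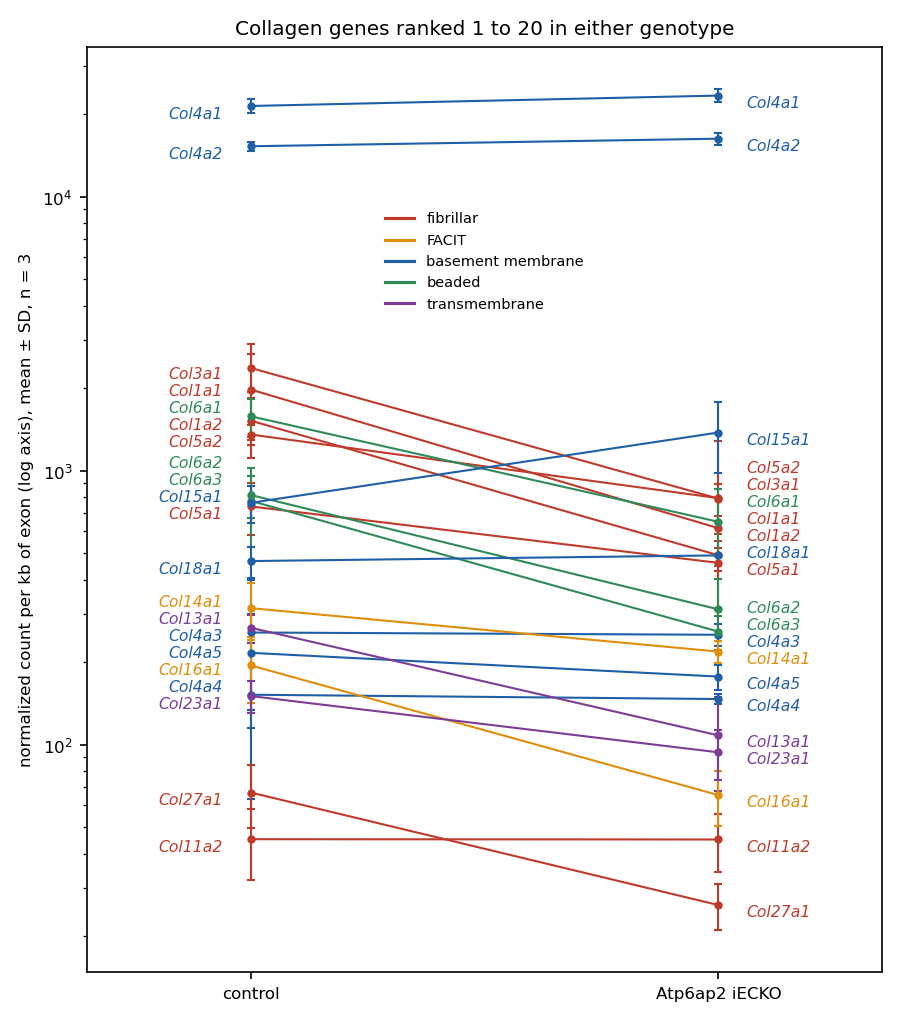
Normalized count per kilobase of exon (log axis, mean ± SD, n = 3) for the collagen genes ranked 1 to 20 in either genotype, with control on the left, Atp6ap2 iECKO on the right and colour by class. Col4a1 and Col4a2 stay on top, Col15a1 moves from a group of genes with like levels at ranks 8 to 11 to rank 3, and the fibrillar and beaded genes slope down.

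The collagen pool was dominated by 2 genes. Col4a1 and Col4a2 together made up 76.0%, 70.0% and 70.4% of the summed level per kilobase in the control libraries and 82.8%, 84.8% and 84.6% in the Atp6ap2 iECKO libraries. The basement membrane class held 79.6%, 73.4% and 74.5% in control and 87.0%, 90.4% and 90.4% in Atp6ap2 iECKO. Fibrillar genes held 12.9%, 17.7% and 16.8% in control and 8.25%, 6.15% and 6.15% in Atp6ap2 iECKO, and beaded genes 5.27%, 6.81% and 6.49% against 3.26%, 2.28% and 2.21%. In no class named here did the ranges of the genotypes overlap. The summed level of all collagens was 50963 ± 3880 per kilobase (SD, n = 3) in control and 47182 ± 2534 in Atp6ap2 iECKO, and the values of all collagens were 1.23% to 1.49% of the library in control and 1.22% to 1.31% in Atp6ap2 iECKO.

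Because shares of 1 total move together, the sums were also read alone. The basement membrane sum was 38570 ± 1737 per kilobase in control and 42116 ± 2047 in Atp6ap2 iECKO. The fibrillar sum was 8109 ± 1840 against 3241 ± 671, and the beaded sum was 3173 ± 627 against 1225 ± 316 (SD, n = 3 for each). With Col4a1 and Col4a2 set aside, basement membrane genes still held 11.1% to 14.7% of the rest in control and 24.5%, 37.0% and 37.8% in the Atp6ap2 iECKO libraries, and fibrillar genes 53.8% to 59.2% against 48.0%, 40.4% and 40.0%. Atp6ap2 iECKO 1 was the library nearest to control in each of these shares.

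**Figure D3:**
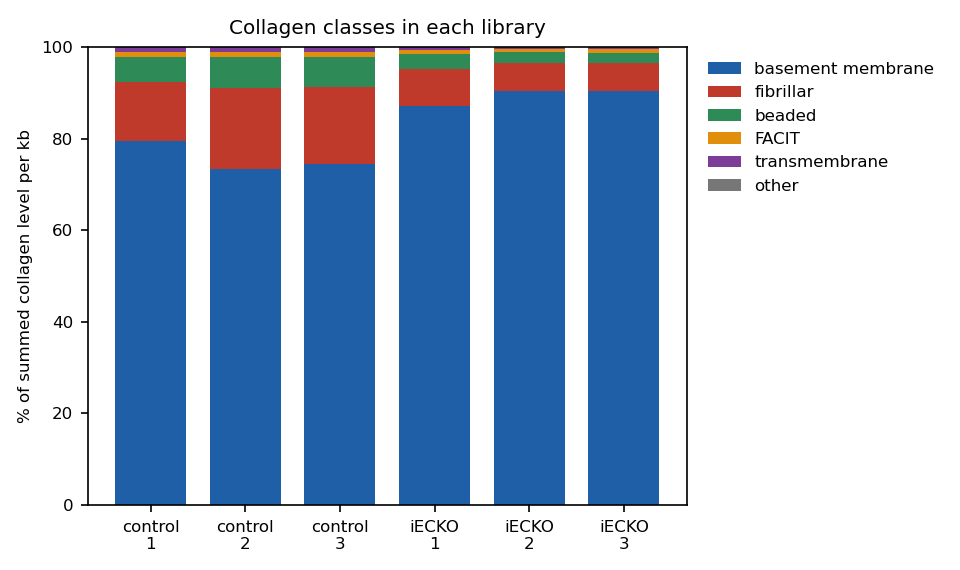
Share of the summed collagen level per kilobase (%, y axis from 0) taken by each class in each of the 6 libraries. The basement membrane share lies between 73.4% and 79.6% in control and between 87.0% and 90.4% in Atp6ap2 iECKO, and the fibrillar and beaded shares are smaller in Atp6ap2 iECKO.

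Chains that assemble into the same trimer were compared as ratios of their levels per kilobase within a library, for 9 pairs. The Col1a1 to Col1a2 ratio was 1.28 ± 0.11 in control and 1.26 ± 0.10 in Atp6ap2 iECKO (SD, n = 3, exact permutation P = 0.8, two-sided). Col4a1 to Col4a2 was 1.40 ± 0.03 against 1.44 ± 0.05 (exact permutation P = 0.5). Col6a1 to Col6a2 was 1.94 ± 0.04 against 2.08 ± 0.05, with no overlap, and reached P = 0.1, the smallest value that an exact permutation test of 3 against 3 can give (0.45 after adjustment over the 9 pairs). Col9a2 to Col9a3 also did not overlap, at 1.66 ± 0.54 against 0.67 ± 0.27 (adjusted exact P = 0.45), at low levels. Col5a1 to Col5a2 had the widest spread in Atp6ap2 iECKO, at 0.31, 0.93 and 0.93 in the 3 libraries against 0.42, 0.59 and 0.62 in control. No pair passed after adjustment over the 9 pairs.

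Several collagen genes are neighbours on the chromosome. Col4a1 and Col4a2 lie head to head on chromosome 8 and share 22 bases at their starts, where unstranded reads cannot be assigned to either gene, Col4a4 and Col4a3 lie head to head on chromosome 1 with a gap of 71 bases, and Col4a6 and Col4a5 lie head to head on X with a gap of 1308 bases. The log2 differences of each pair were 0.13 and 0.09, 0.10 and 0.10, and -0.13 and -0.23. Col6a2 and Col6a1, on the same strand of chromosome 10, both fell. Col3a1 and Col5a2, tail to tail on chromosome 1 and 24614 bases apart, had the same sign, but Atp6ap2 iECKO 1 was low for Col3a1 and at the control level for Col5a2.

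The classes differed in the encoded helix, counted as runs of at least 5 Gly-X-Y triplets in 1 transcript per gene. Fibrillar genes had 2 or 3 runs and a longest run of 216 to 344 triplets. Basement membrane genes had 11 to 27 runs and a longest run of 30 to 66, FACITs a longest run of 32 to 113, beaded genes 37 to 87 and transmembrane genes 40 to 55. The differences did not line up with run length alone. Among genes with 338 to 344 triplets, Col1a1, Col1a2 and Col3a1 fell while Col11a2 had a difference of 0.01. Among short-run genes, Col12a1 (32 triplets) and Col6a3 (45 triplets) fell, while Col18a1 (30 triplets) differed by 0.08 and Col4a4 (45 triplets) by 0.10. No correlation was computed, as genes of 1 class share their structure.

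**Figure D4:**
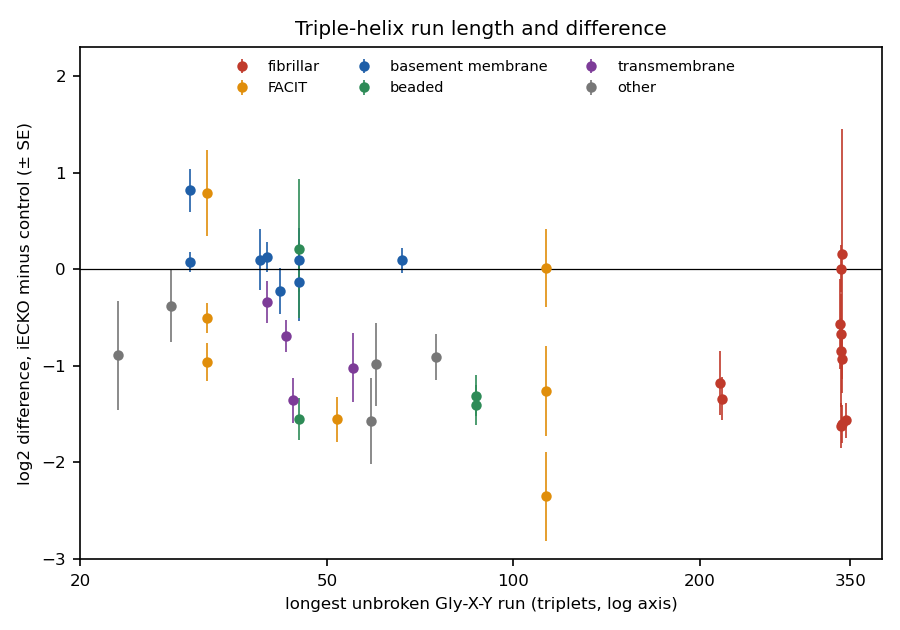
Longest unbroken Gly-X-Y run of each tested collagen gene (triplets, log axis) against its log2 difference, Atp6ap2 iECKO minus control, with the SE as error bars and colour by class. Fibrillar genes stand apart on the right at 216 to 344 triplets, and both long and short runs occur among genes near 0 and among genes below -1.

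Genes for collagen modification, cross-linking and assembly and for collagen receptors were read from lists. Of 33 modification genes, 32 were tested, 9 fell and 1 rose, with a median log2 difference of -0.20. For comparison, 4.97% of all genes tested were called lower and 3.28% higher, and the 1 rise is near that share. Loxl1, a cross-linking oxidase, changed by -1.72, Pcolce and Pcolce2, enhancers of procollagen processing, by -1.40 and -1.48, and Adamts2, the procollagen N-proteinase, by -1.30. P4ha2, a prolyl 4-hydroxylase subunit, rose by 0.70. Serpinh1, the collagen chaperone, differed by -0.05 and was not called. Of 11 receptor genes, 9 were tested, 3 fell and 0 rose in limma's test (median -0.02), and these were Mrc2 (-1.43), Ddr2 (-1.16) and Itga1 (-1.09). Itgb1, the shared β1 integrin subunit, differed by 0.06 and was not called.

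Most markers of fibroblasts and mural cells fell with the called collagens, and few markers of the other cell types were called. Shares of all genes called at the adjusted threshold were 4.97% lower and 3.28% higher. Of 22 fibroblast markers, 20 were tested, 14 fell and 0 rose (median log2 difference -1.46), and their summed level was 46583 to 65389 in control and 13757 to 23403 in Atp6ap2 iECKO libraries. Mfap4 alone made up most of this sum, at 33319, 46331 and 40088 in control and 15396, 9988 and 8683 in Atp6ap2 iECKO libraries. The 3 tested fibroblast markers that were higher in sign, Pi16 (1.12), Mfap5 (0.55) and Serpinf1 (0.13), were not called. Of 23 mural and smooth muscle markers, all tested, 15 fell and 0 rose (median -1.52), and their sum was 37895 to 54782 against 15144 to 19617. Pdgfrb, a mural receptor, changed by -1.54 and Pdgfra, a fibroblast receptor, by -1.35, and none of the markers of either list was at 0 in all libraries. Of 24 endothelial markers 1 fell (Tek) and 0 rose (median 0.00), and their sum was 530748 to 700007 against 539850 to 625942. At an unadjusted P below 0.05, 15 fibroblast, 22 mural and 3 endothelial markers were lower and 1 fibroblast, 0 mural and 1 endothelial marker were higher. Shares of all genes at that P were 12.3% lower and 11.6% higher, and the endothelial count lower is near its share. The 3 endothelial markers that were lower with no overlap were Tek (-0.53), Ptprb (-0.68) and Plvap (-0.41), of which the last 2 were not called. Another 2, Emcn (0.27) and Egfl7 (0.18), were higher with no overlap and were not called. Over all genes, 15.0% were lower and 14.7% higher with no overlap. Of 18 epithelial markers 1 rose (Scgb1a1) and 0 fell, of 19 leukocyte markers 0 were called at either P, of 12 cartilage markers 6 were tested and 1 fell (Sox5), and of 7 mesothelial markers 3 were tested and 0 were called, with 1 lower at an unadjusted P below 0.05. The part of fibroblast and mural cells in the collagen differences was not tested, and in bulk samples fewer cells of a type and less RNA per cell cannot be told apart.

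Library by library, the fibrillar medians were -0.79, -1.39 and -1.54 and the beaded medians -0.89, -1.45 and -1.66 in Atp6ap2 iECKO 1, 2 and 3, as log2 ratios to the control mean. The fibroblast marker medians were -0.99, -1.70 and -1.58 and the mural medians -1.33, -1.60 and -1.67 in the same libraries. FACIT medians were -0.67, -0.92 and -0.99, transmembrane medians -0.57, -0.78 and -1.10, and basement membrane medians 0.13, 0.11 and 0.02. Atp6ap2 iECKO 1 was the library nearest to control for the fibrillar, beaded, FACIT and transmembrane classes and for both stromal lists. It also had the most Atp6ap2 of its genotype (4220). Control 1 had the most Atp6ap2 of the controls (7490) and the lowest control value for 12 of the 13 called genes. A link between the levels of Atp6ap2 and of collagen genes was not tested.

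**Figure D5:**
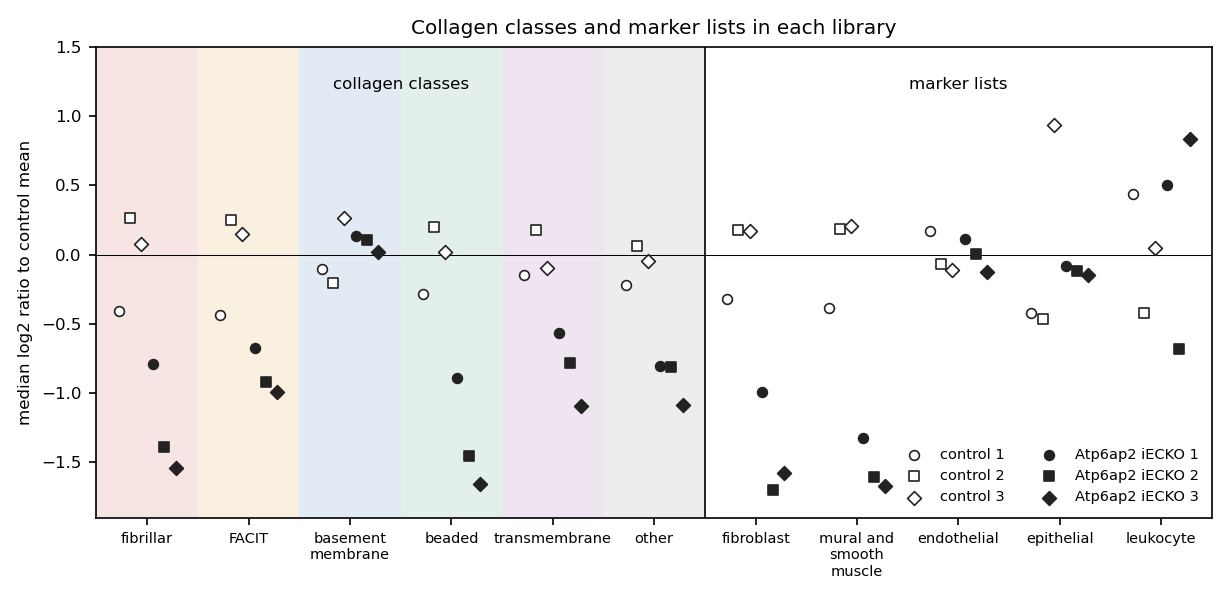
Median log2 ratio to the control mean (y axis) over the genes of each collagen class (left of the line) and of 5 marker lists (right of the line), with open symbols for control and filled symbols for Atp6ap2 iECKO libraries. Filled symbols lie below the open ones for the fibrillar, beaded, FACIT and transmembrane collagens and for the fibroblast and mural lists, and overlap with them for the basement membrane class and the endothelial list.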

How the data were processed

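RNA-Seq was performed on iLECs of 3 control and 3 Atp6ap2 iECKO samples, called biological replicates in the study. The authors aligned reads from TruSeq RNA libraries to mm10 and quantified genes with BaseSpace tools, and the annotation they used is not given in the sources used here. Their deposited table holds a normalized signal for each gene and library, called a normalized count here. The labels call the values raw, but they are not whole numbers and reads could not be recovered, so read depth is unknown and no count test was run. A moderated linear model with a mean-variance trend (limma 3.58.1, R 4.3.3) was fitted to log2(value + 1) of every gene that reached 10 in 3 or more libraries, and the threshold was a Benjamini-Hochberg adjusted P of 0.05 across these genes. A count model had been planned before the unit was known. Ratios within a library were compared with two-sided exact permutation tests. Levels per kilobase used all exons of a gene in GENCODE M21 (GRCm38). All collagen genes were named, with values in every library for those called, the 5 highest per kilobase and members unlike their class. Members and lists were chosen with earlier results of these data known. Alternatives were other scalings, filters, pseudocounts, variance models and thresholds, a replicate block, Xist as a covariate, Xist-high libraries alone, the longest transcript as length and each library left out. Figures were drawn with matplotlib 3.10.9.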

Additional observations from a re-analysis of the deposited data

How the results depend on the processing

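Against the 13 collagen genes called lower, 4 were called without the mean-variance trend, 2 at an adjusted P below 0.01, 0 in the Xist-high libraries alone, and 5 to 14 with 1 library left out. Against 0 called higher, 1 (Col15a1) was called at an adjusted P below 0.1 and 0 to 1 with 1 library left out. Library total scaling, no filter, robust moderation and the Xist covariate each lost only Col5a1, and a minimum of 50 in 3 libraries dropped Col22a1 from the test. Library total scaling moved the median of all genes to 0.05.

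With 1 library left out, the median difference was between -1.32 and -0.77 for fibrillar and between -1.14 and -0.78 for other collagens, and for basement membrane it was between -0.015 and 0.215, turning sign without control 2. With lengths of the longest transcript, the fibrillar share was 21.1% in control and 9.27% in Atp6ap2 iECKO, the basement membrane share 70.0% and 86.5%, the transmembrane share 1.03% in control and the share of other collagens 0.054% in Atp6ap2 iECKO.

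Signs turned for differences near 0. Leaving out 1 library gave -0.77 to 1.62 for Col2a1, -0.15 to 0.52 for Col4a3, -0.20 to 0.54 for Col4a4, -0.46 to 0.062 for Col4a5, -0.43 to 0.34 for Col4a6, -0.20 to 0.87 for Col6a4, -0.17 to 0.35 for Col9a3, -0.17 to 0.23 for Col11a2 and -0.026 to 0.16 for Col18a1. In the Xist-high libraries alone Col4a5 was 0.059, Col4a6 0.41, Col9a3 -0.10 and Col18a1 -0.032. Log2 differences of chain ratios with 1 library left out were -0.083 to 0.044 for Col1a1 to Col1a2, -0.052 to 0.051 for Col4a3 to Col4a4, -0.0014 to 0.79 for Col5a1 to Col5a2 and -0.28 to 0.029 for Col6a3 to Col6a2. The cause of these moves was not tested.

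Whether same-numbered libraries share an animal, litter or day is not given in the sources used here, and the main fit treated them as unpaired. Deviations of same-numbered libraries correlated by 0.25, 0.11 and 0.08, and those of different-numbered libraries by -0.21 to 0.10. Each Atp6ap2 iECKO library correlated best with the control of its own number. Control 3, however, correlated more with Atp6ap2 iECKO 2 (0.10) than with its own number. With the replicate block, 14 collagen genes were lower and 1 was higher (Col15a1), Col14a1 being the gene gained, and no other collagen call changed. As read depth is unknown, what depth limits could not be computed. For low genes such as Col22a1 the log2 difference is understated by the pseudocount, which the ratio of the means does not hold.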
